A study of Mus musculus with 27 samples.

Results

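Loss of PAXX was compared with WT in CH12F3, a B-cell line of the mouse whose stimulated cells exchange IgM for IgA. All 35501 junctions deposited for the 2 PAXX-/- clones (20654 in clone 1 and 14847 in clone 2) were set against all 11504 junctions of WT, out of 193201 in the series. Each clone had 3 libraries, so 6 PAXX-/- libraries stood against 3 WT libraries. Both PAXX-/- clones derived from the parental CH12F3 line that served as WT, and no other change in genotype is given for them. All cells were stimulated for 72 h with 20 ng/mL IL-4, αCD40 (labelled 1 mg/mL) and 1 ng/mL TGFβ. A PAXX-/- clone is the progeny of 1 cell, and WT was 1 line, so the spread between clones was seen only within PAXX-/-. The tables hold no measure of PAXX itself, so the genotype could not be checked in these data.

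PAXX belongs to the XRCC4 family, binds the Ku complex at broken DNA ends and takes part in classical non-homologous end joining. Class switching begins when the deaminase AID attacks cytosines in the repetitive switch regions, often at the motif AGCT, and the resulting breaks in Sμ and in a downstream switch region are joined with loss of the DNA between them. Classical end joining leaves direct joins, short microhomologies or small insertions. In CH12F3 cells the usual partner of Sμ is Sα. The libraries were made by LAM-HTGTS, a translocation sequencing method based on linear amplification, which reads from a fixed bait upstream of Sμ into the prey, the DNA joined to it. A join was called direct when bait and prey met exactly, microhomology when both alignments shared bases, and insertion when bases of the read lay between them.

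The bait lay on the minus strand of chromosome 12 in mm9, and its bases are counted here from the most used first base. Its sequence is shown because every junction starts within it and the clones differed in it. The first 100 bases, as the majority of deposited reads over all clones gave them, ran at chr12:114664810-114664909, with both AGCT motifs in capitals.
Bait, bases 1 to 100: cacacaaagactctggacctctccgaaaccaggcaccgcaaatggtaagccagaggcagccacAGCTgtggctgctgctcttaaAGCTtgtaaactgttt

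PAXX-/- clone 2 carried base changes in the first AGCT of the bait. G65A was in 50.9% of its 6903 reads over that base, against 1.95% of 9751 in PAXX-/- clone 1 and 1.49% of 5354 in WT. C66T was in 40.0% of 6289 reads of clone 2, against 0.786% in clone 1 and 0.502% in WT. Of 5433 clone 2 reads aligned past both bases, 3044 had the first change, 2227 the second, 18 both and 96 neither, while 6700 of 6910 reads of clone 1 and 3555 of 3634 reads of WT had neither. The unchanged stretch and the 2 changed ones follow, at chr12:114664829-114664860 on the minus strand, with AGCT or the changed base in capitals.
Unchanged: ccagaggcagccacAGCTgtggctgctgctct
With G65A: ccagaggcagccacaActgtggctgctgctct
With C66T: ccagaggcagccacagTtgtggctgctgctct

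C66T was also found in 37.8% and 42.6% of reads of the XLF-/-PAXX-/- clones, which derived from a PAXX-/- clone, while G65A was in 0.297% and 0.289% there. An alignment can end at a changed base, so bases after it can be counted as inserted. The bait could be extended past a substituted base in 4.24% to 5.32% of Sα reads of PAXX-/- clone 2 libraries, 2.16% to 2.23% in clone 1 and 2.32% to 2.86% in WT.

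The prey reads at Sα differed between the clones too. Of 5953 positions of the Sα core that could be compared with WT, PAXX-/- clone 1 had another majority base at 5. PAXX-/- clone 2 had another majority base at 11 of 5936. No position was shared by the clones, and 3 of the 5 and 9 of the 11 were transitions. At these positions the clone's base was in at least 76.7% of clone 1 reads and 71.8% of clone 2 reads, and in at most 2.21% and 5.26% of WT reads. The XLF-/-PAXX-/- clones carried 2 of the 11 as their majority base and 0 of the 5. Of 45 summary measures described below, 12 had libraries of the clones that did not overlap each other. Some of them are parts of one another, so they are not 12 separate differences. With 3 against 3 libraries the exact permutation test allows no p under 0.1, so none was called.

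PAXX-/- libraries held 4334 to 7523 junctions and WT libraries 3610 to 4010. Median prey alignments were 137 to 164 bases long in PAXX-/- and 121 to 132 in WT, and median reads 232 to 260 bases in PAXX-/- and 218 to 227 in WT. By their read names, PAXX-/- libraries came from 2 sequencing runs (1 library of each clone in the first, 2 of each in the second) and WT from another. A difference of run and one of genotype cannot be told apart here. The series' design text calls the libraries biological replicates, and libraries of 1 clone share that clone, so p-values measure the spread between libraries. For single libraries the exact Clopper-Pearson 95% interval was 1.16 to 1.83 percentage points to either side for the direct share at Sα and 0.523 to 0.837 for long insertions there, counting error only.

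Across 45 summary measures, 13 had PAXX-/- and WT libraries that did not overlap (28.9%), and 7 passed an adjusted p of 0.05 or less (15.6%). All 7 were measures of the bait window, 6 higher and 1 lower in PAXX-/-. These measures overlap and are not 7 separate results. Far deletional joins were counted by distance class and again as a sum, and long insertions again within all insertions. Both inversional measures are shares of the same total. The test was an exact two-sided permutation of library means with Benjamini-Hochberg adjustment within a family of measures, and 6 against 3 libraries allow no p under 0.0119. Adjusted p-values reach 0.05 in a family of 5 or more only when several of its members have low p-values. Deletional joins at Sα, its densest bin and joins between the Sα and bait windows also had an exact permutation p of 0.0119. They did not pass within their families.

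At Sα (chromosome 12, 114489501 to 114509500), joins with over 20 inserted bases were more frequent in all 6 PAXX-/- libraries. They made up 2.55%, 3.11% and 2.91% of Sα junctions in PAXX-/- clone 1 and 2.98%, 4.23% and 4.72% in clone 2, against 1.69%, 1.58% and 1.70% in WT. The groups did not overlap, and clone 2 held both of the highest values. The mean was 3.42% ± 0.856 in PAXX-/- (SD, n = 6) and 1.65% ± 0.0675 in WT (SD, n = 3), so PAXX-/- lay 1.76 points above WT (95% interval 0.510 to 3.15). It did not pass after adjustment (exact permutation p = 0.0238, adjusted p = 0.0952). Without PAXX-/- clone 1 library 2 the unadjusted p was 0.0536, and without any 1 of the WT libraries 0.0714, by the exact permutation test. The difference was 1.11 points with the PAXX-/- libraries of the first run and 2.09 with those of the second, and 2.34 among reads of 150 to 300 bases. Median length of these insertions by library was 39 to 50 bases in PAXX-/- and 30 to 36 in WT. A run of 12 bases found in 10 or more prey reads of the Sα or bait window of the series, on either strand, was present in 66.7% to 81.0% of them by PAXX-/- library (599 insertions) and in 80.0% to 88.6% by WT library (100 insertions). On other chromosomes that share was 23.8% to 40.2% in PAXX-/- and 27.2% to 27.9% in WT.

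No class of shorter insertions passed the test. Insertions of 6 to 20 bases averaged 4.74% ± 0.283 in PAXX-/- clone 1, 6.17% ± 0.846 in clone 2 and 4.30% ± 0.164 in WT (SD, n = 3 each). All PAXX-/- libraries lay above WT, the lowest PAXX-/- library at 4.50% and the highest WT library at 4.49%, and the test gave an exact permutation p = 0.0714 (adjusted p = 0.0952). Insertions of 1 base were 8.79% ± 0.520 in PAXX-/- and 9.87% ± 0.592 in WT, a difference of -1.08 points with overlapping libraries (exact permutation p = 0.0476, adjusted p = 0.0952). The 1-base difference kept an unadjusted exact permutation p of 0.05 or less without PAXX-/- clone 2 library 3 or WT library 2, and lost it without each of the other 7 libraries (up to 0.143). For bait ends clear of the substituted bases it was -0.358 points (exact permutation p = 0.107). In the class of 2 to 5 bases the clones lay to opposite sides of the WT mean, with 11.4% ± 0.230 in clone 1, 12.7% ± 0.682 in clone 2 and 11.5% ± 0.795 in WT (SD, n = 3 each). Of the 4 bases a single-base insertion can have, cytosine was the 1 (25.0%) that passed and the 1 (25.0%) whose groups did not overlap. It was inserted in 7.76%, 8.55% and 8.74% of 1-base insertions in clone 1 and 9.22%, 10.3% and 7.51% in clone 2, against 6.45%, 7.34% and 4.93% in WT (difference 2.43 points, 0.416 to 4.29, exact permutation p = 0.0119, adjusted p = 0.0476). Cytosine made up 136 of 1580 such insertions in PAXX-/- and 37 of 597 in WT. This family was examined after seeing the data, and among 4 members the least possible p passes by itself. Adenine and thymine made up most 1-base insertions, and the clones did not overlap in either. Adenine was 37.9% to 46.2% in clone 1, 49.5% to 50.4% in clone 2 and 39.2% to 48.8% in WT. Thymine was 37.9% to 45.7% in clone 1, 34.1% to 36.0% in clone 2 and 38.9% to 43.8% in WT. Guanine was 7.41% to 8.997% in clone 1, 5.67% to 6.32% in clone 2 and 7.34% to 10.6% in WT.

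Direct joins at Sα were 16.6%, 17.5% and 17.3% in PAXX-/- clone 1 and 17.5%, 16.1% and 16.3% in clone 2, against 18.5%, 18.4% and 18.1% in WT. Each PAXX-/- library lay below each WT library, yet the difference did not pass within the 3 structure shares (exact permutation p = 0.0238, adjusted p = 0.0714). With the bait extended through the substituted bases it was -1.45 points, and for bait ends clear of those bases -2.25 points (exact permutation p = 0.0119), against -1.48 as deposited. Total insertions separated the clones more than the genotypes, with 26.5% to 28.7% in clone 1, 29.1% to 33.3% in clone 2 and 26.2% to 28.2% in WT. The microhomology share did likewise, with 54.0% to 57.0% in clone 1, 50.6% to 53.5% in clone 2 and 53.7% to 55.4% in WT. Microhomologies of 1, 2, 3 to 4, and 5 or more bases differed from WT by -0.689, -0.307, 0.336 and -0.209 points, with intervals that all held 0 and adjusted p-values of 0.714. For 1 base the clones did not overlap, with 18.2% to 20.4% in clone 1, 16.3% to 17.8% in clone 2 and 18.6% to 19.4% in WT.

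**Figure D1:**
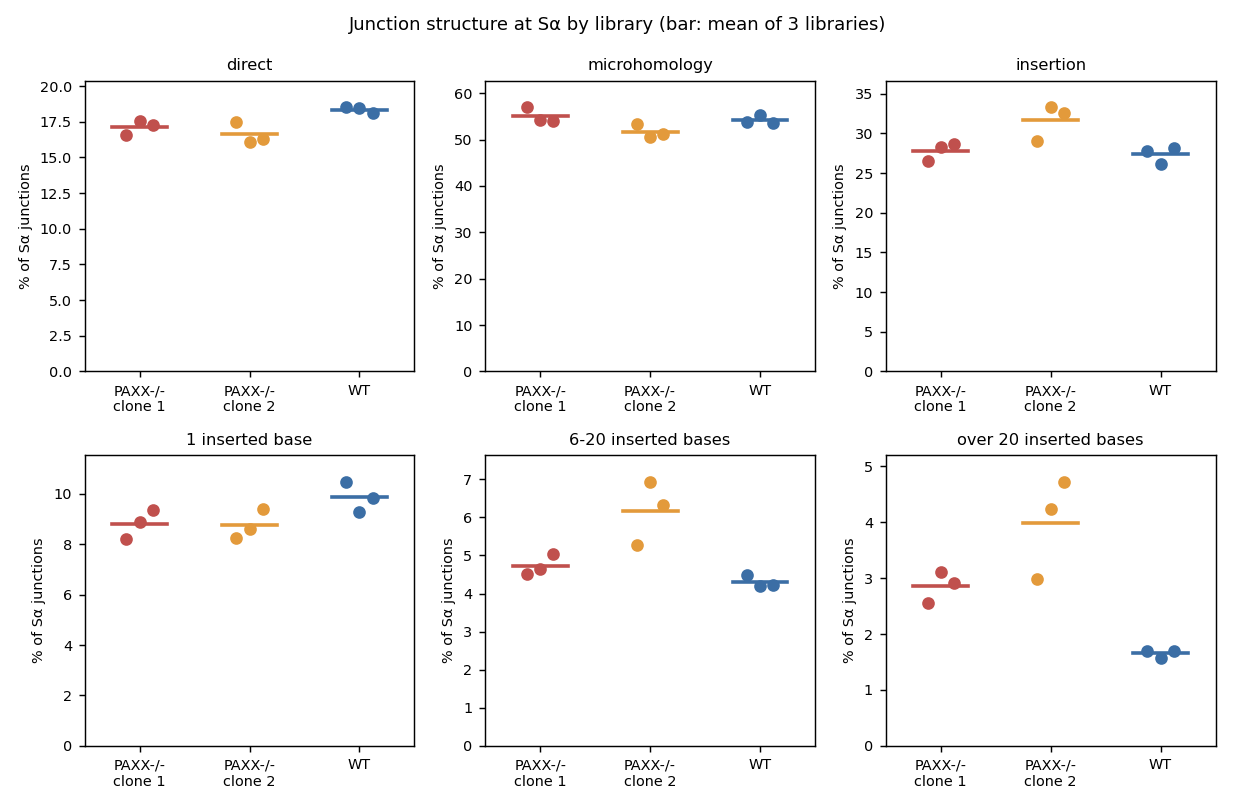
Share of Sα junctions (%) in each structure or insertion class, with 1 point per library and a bar at the mean of 3 libraries, for PAXX-/- clone 1, PAXX-/- clone 2 and WT from left to right. The 6 PAXX-/- libraries lie below WT for direct joins and above WT for insertions of over 20 bases (2.55% to 4.72% against 1.58% to 1.70%), while total insertions set clone 2 apart from clone 1.

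No microhomology sequence passed the test. Of 22 sequences that each held 1% or more of microhomology junctions, 0 had groups that did not overlap (0.0%) and 0 passed (0.0%), and 0 had an unadjusted p under 0.05. A single G was the most used, in 12.6% ± 1.16 of microhomology junctions in PAXX-/- and 12.7% ± 1.56 in WT. A single A followed with 9.16% ± 0.943 in PAXX-/- and 9.01% ± 0.430 in WT. A single C was used in 5.53% to 6.05% of them in PAXX-/- clone 2, where it was 6.99% to 7.85% in clone 1 and 7.04% to 7.69% in WT. The repeat GCTG, a unit of switch regions, was used in 3.30% ± 0.419 in PAXX-/- and 4.11% ± 0.878 in WT (exact permutation p = 0.0952, adjusted p = 0.669). The other 6 of the 10 most used, all of 1 to 3 bases, had adjusted p-values of 0.669 or more.

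Positions within Sα differed most in 1 stretch. The densest 500 bp bin (chromosome 12, 114500001 to 114500500) held 19.7%, 19.9% and 19.1% of deletional Sα junctions in PAXX-/- clone 1 and 19.7%, 17.2% and 17.1% in clone 2, against 26.7%, 25.7% and 25.3% in WT. Deletional joins keep the orientation in which the stretch between both partners is lost. The groups stood apart, and PAXX-/- was 7.13 points lower (-7.13, 95% interval -9.51 to -4.999, exact permutation p = 0.0119). The value was -6.22 with the PAXX-/- libraries of the first run and -7.59 with those of the second. The bin at 114498001 held 4.15% ± 0.208 in PAXX-/- and 3.16% ± 0.198 in WT, so PAXX-/- was 0.998 points higher (0.613 to 1.37, exact permutation p = 0.0119). These were the 2 of 14 bins (14.3%) whose groups did not overlap, and neither passed over the bins (exact permutation test, adjusted p = 0.0833 for both), so 0.0% passed. All bins are shares of 1 total, so a lower share in the densest bin by itself raises the others. PAXX-/- averaged above WT in 11 of the other 12 bins, which is therefore not a separate result. The median deletional position was 114500086 to 114500087 in clone 1, 114500012 to 114500079 in clone 2 and 114500087 to 114500098 in WT.

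Deletional joins were 96.8%, 96.8% and 97.1% of Sα junctions in PAXX-/- clone 1 and 97.3%, 96.4% and 96.6% in clone 2, against 95.9%, 94.8% and 95.3% in WT. The groups did not overlap, and the exact permutation p was 0.0119 (adjusted p = 0.0595). The share on the far side of the core, away from the bait, was 3.26% ± 0.253 in PAXX-/- and 2.76% ± 0.400 in WT (exact permutation p = 0.0357, adjusted p = 0.0893). The difference of 0.506 points was 0.336 without WT library 2 (p = 0.25) and 0.0827 with a core of 95% (p = 0.417, exact permutation test). The share on the bait side was 0.534% ± 0.206 in PAXX-/- and 0.615% ± 0.0592 in WT.

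**Figure D2:**
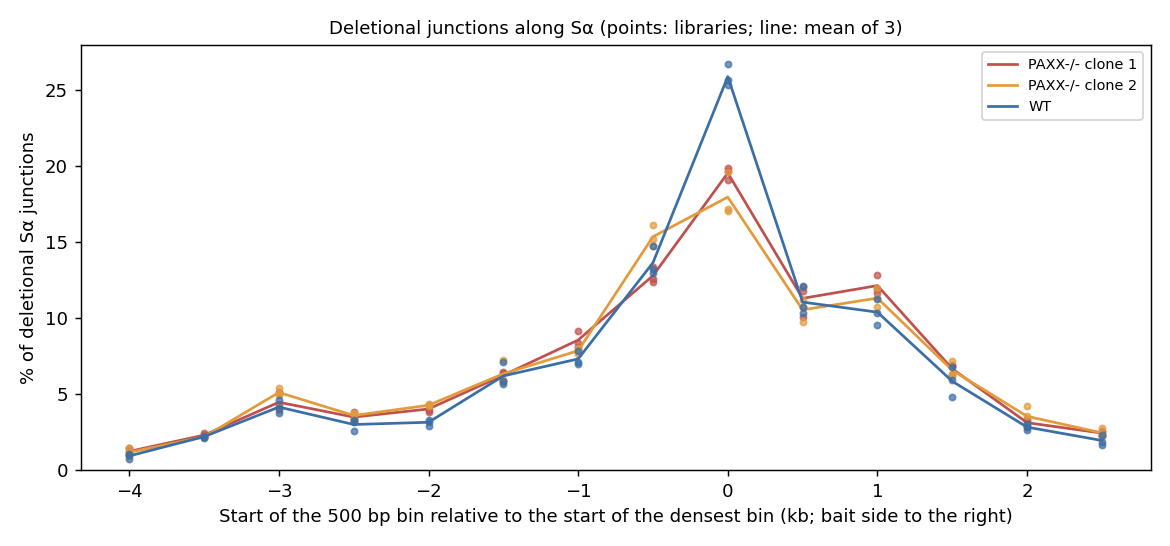
Share of deletional Sα junctions (%) in 500 bp bins along Sα, in kb from the start of the densest bin with the bait side to the right, for PAXX-/- clone 1, PAXX-/- clone 2 and WT (points are libraries, lines the means of 3). In the densest bin the PAXX-/- libraries lie at 17.1% to 19.9% and the WT libraries at 25.3% to 26.7%.

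In and near that stretch single positions were used again and again. Those listed held 0.5% or more of deletional Sα junctions in PAXX-/- clone 1, PAXX-/- clone 2 or WT. A position could enter through 1 of these groups alone, so the choice itself favours differences between them, which were not tested. Position 114500098 took 1.35%, 1.49% and 1.24% of deletional Sα junctions in PAXX-/- clone 1 but 0.0601%, 0.0418% and 0.0770% in PAXX-/- clone 2, against 1.21%, 1.05% and 1.22% in WT. Position 114500087 took 0.916% to 1.07% in clone 1 and 0.0% to 0.120% in clone 2, against 0.763% to 0.856% in WT. Clone 2 instead used 114500015 (1.68%, 1.80% and 1.96%), which held at most 0.0991% in clone 1 and 0.153% in WT. It also used 114500932 (0.661%, 0.753% and 1.04%), which held 0.0% in clone 1 and at most 0.101% in WT. Position 114500086 held 0.131% to 0.256% in clone 1, 0.154% to 0.240% in clone 2 and 0.504% to 0.554% in WT. The piled-up joins had many bait ends, with 57 among the 122 of clone 2 at 114500015 and 57 among the 144 of clone 1 at 114500098.

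Most piled-up joins were counted as insertions, and at the most used positions the longer inserted stretches recurred from read to read. Of reads with 8 or more inserted bases, the commonest last 8 were in 81 of 96 at 114500015 in clone 2. In clone 1 they were in 37 of 56 at 114500087 and 57 of 84 at 114500098. The majority of the last 16 inserted bases (capitals) and the first 24 prey bases of the most used positions is shown, on the minus strand, because it shows that the inserted bases recur.
Clone 2 at chr12:114499992-114500015: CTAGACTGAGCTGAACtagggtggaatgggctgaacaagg
Clone 1 at chr12:114500064-114500087: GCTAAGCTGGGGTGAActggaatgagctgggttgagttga
Clone 1 at chr12:114500075-114500098: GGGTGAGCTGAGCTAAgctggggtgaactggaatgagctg

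Over the 16 inserted bases of 70, 23 and 53 reads, 96.1%, 86.7% and 93.5% of single bases equalled the lines shown, in their order. The last 11 inserted bases at 114500087 were identical to the 11 prey bases that start at 114500098, in clone 1 and in WT. In clone 2 the nearest base that differed from WT lay 9 bases from 114500098 and 20 from 114500087, and in clone 1 the nearest lay 259 and 270 bases away. For the positions that clone 2 used instead, it lay 92 bases from 114500015 and 24 from 114500932 in clone 2. In clone 1 these distances were 342 and 90 bases. A link between such bases and the pile-ups was not tested. Without all 5 positions, long insertions at Sα still differed by 1.48 points and the densest bin by -7.08 points.

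Some exact joins, with the same bait end and prey position, were found in most libraries. The 5 found in the most were in 6 to 9 of the 9 libraries, with 7 to 16 junctions each. Of the join from bait base 44 to 114498448 there were 3 in PAXX-/- clone 1, 3 in clone 2 and 4 in WT, all 10 with 1 base of microhomology. That from bait base 77 to 114499900 was seen 3 times in clone 1, 1 time in clone 2 and 3 times in WT, each with 5 shared bases. That from bait base 68 to 114500098 was seen 5 times in clone 1 and 0 times in clone 2, against 4 times in WT. The joins from bait base 77 to 114500098 (5, 3 and 8 junctions) and from bait base 64 to 114500087 (4, 1 and 6, in clone 1, clone 2 and WT) completed the 5. Those from bait base 44 and to 114499900 are shown, bait then prey, with the shared bases in capitals.
Bait base 44 to 114498448: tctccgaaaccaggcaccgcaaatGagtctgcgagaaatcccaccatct
Bait base 77 to 114499900: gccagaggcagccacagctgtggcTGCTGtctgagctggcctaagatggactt

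The ends of the bait followed the clone. Bait base 68, just past the first AGCT, ended 2.80%, 2.83% and 2.89% of Sα junctions in PAXX-/- clone 1 and 0.351%, 0.403% and 0.819% in clone 2, against 3.33%, 3.68% and 3.49% in WT. Base 67 ended 1.41% ± 0.233 in clone 1, 0.160% ± 0.101 in clone 2 and 1.65% ± 0.0816 in WT (SD, n = 3 each). Clone 2 was low at both. At base 64, just before its changed bases, clone 1 stood apart, with 4.53% ± 0.158 in clone 1, 6.70% ± 0.444 in clone 2 and 6.14% ± 0.411 in WT, and clone 2 overlapped WT. Of 39 bait ends with 1% or more of Sα junctions, 3 had groups that did not overlap (7.69%) and 0 passed (0.0%), with 6 at an unadjusted exact permutation p under 0.05. By the exact permutation test, those 3 were base 68 (difference -1.82 points, adjusted p = 0.195), base 79 (1.76% ± 0.0230 in clone 1, 2.38% ± 0.168 in clone 2 and 1.49% ± 0.0532 in WT, adjusted p = 0.195) and base 81 (1.51% ± 0.207 in PAXX-/- and 1.09% ± 0.123 in WT, adjusted p = 0.244). Bait ends at the positions of either AGCT in the majority bait sequence made up 15.5% to 15.6% in clone 1, 17.6% to 19.0% in clone 2 and 17.9% to 18.7% in WT. In clone 2 the first motif was unchanged in 96 of 5433 reads aligned past its changed bases. There the share counts positions, not intact motifs. With the bait extended through the substituted bases, that share differed by -2.23 points (exact permutation p = 0.0119), against -1.33 as deposited (exact permutation p = 0.262). An extended bait had to match 3 bases past the changed base, so an end just before G65A or C66T left the first AGCT. More Sα reads were extended in clone 2 than in clone 1 or WT. The lower p therefore comes with the setting and is no support for a difference.

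**Figure D3:**
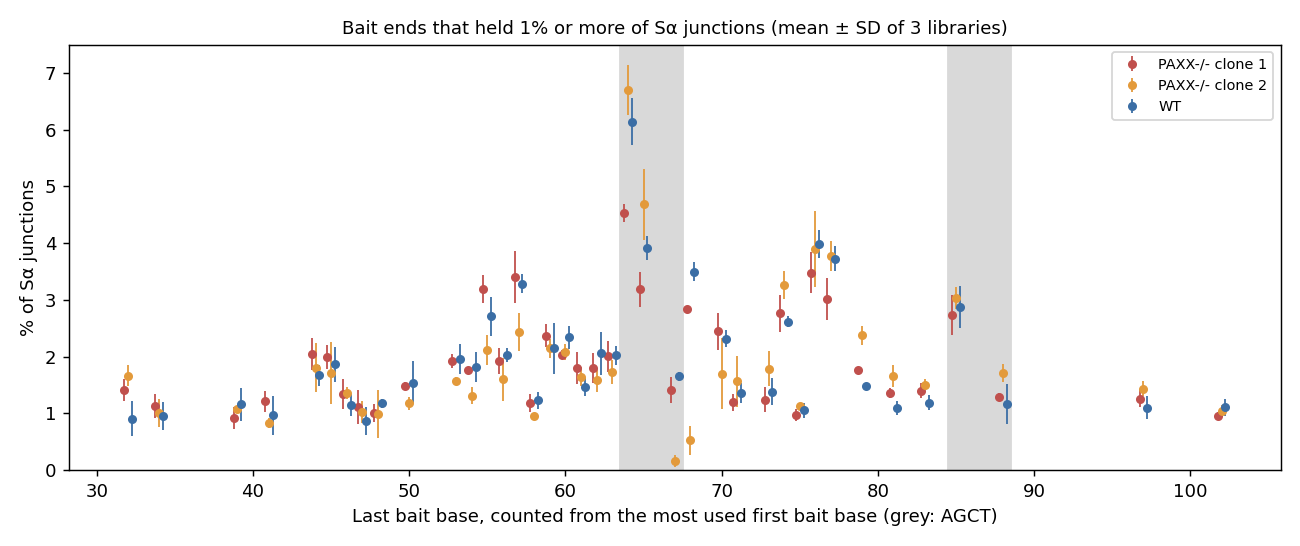
Share of Sα junctions (%) by the last bait base, for bait ends with 1% or more, as mean ± SD of 3 libraries for PAXX-/- clone 1, PAXX-/- clone 2 and WT. Grey bands mark AGCT in the majority bait sequence, of which clone 2 carried the first in changed form. At base 68 clone 2 lies at 0.524%, below 2.84% in clone 1 and 3.50% in WT.

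Joins back into the bait window, up to 10 kb to each side of the bait, held the measures that passed. Below the bait means towards Sα, at lower coordinates. Deletional joins 2 to 3 kb below the bait rose to 8.07%, 6.30% and 9.02% of deletional bait-window junctions in PAXX-/- clone 1 and 9.40%, 6.59% and 7.09% in clone 2, against 4.12%, 4.73% and 3.52% in WT (difference 3.62 points, 95% interval 1.85 to 5.50, exact permutation p = 0.0119, adjusted p = 0.0255). Those 3 to 10 kb below rose to 1.18%, 1.48% and 1.44% in clone 1 and 1.88%, 1.88% and 1.51% in clone 2, against 0.573%, 0.498% and 0.659% in WT (difference 0.985 points, 0.523 to 1.39, exact permutation p = 0.0119, adjusted p = 0.0255). In both classes the groups did not overlap, and together they were 9.31% ± 1.32 in PAXX-/- (n = 6) and 4.70% ± 0.527 in WT (n = 3). Joins 1 to 2 kb below were 33.3% ± 2.39 in clone 1, 27.4% ± 1.07 in clone 2 and 35.5% ± 2.06 in WT, which did not pass (exact permutation test, adjusted p = 0.107). Joins within 500 bp were 23.3% ± 0.831 in clone 1, 27.6% ± 0.270 in clone 2 and 24.2% ± 1.63 in WT.

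Inversional joins, in which the prey is turned round, differed by distance too. Those at or above the bait rose to 24.6% ± 2.42 of inversional bait-window junctions in PAXX-/- clone 1 and 31.6% ± 4.86 in clone 2, against 15.3% ± 4.60 in WT (SD, n = 3 each). The lowest PAXX-/- library was at 22.2% and the highest WT library at 19.2% (difference 12.8 points, 4.36 to 21.6, exact permutation p = 0.0119, adjusted p = 0.0255). Those 1 to 2 kb below fell to 36.0%, 35.6% and 40.5% in clone 1 and 28.4%, 32.1% and 30.4% in clone 2, against 47.0%, 47.4% and 47.4% in WT (difference -13.5 points, -19.0 to -6.79, exact permutation p = 0.0119, adjusted p = 0.0255). These rest on 1249 inversional junctions in PAXX-/- and 404 in WT. Without WT library 3 the first was 10.3 points (exact permutation p = 0.0714). With the 4 PAXX-/- libraries of the second run they were 13.5 and -12.7 points (exact permutation p = 0.0571 for each). Deletional joins were 87.4% ± 1.32 in PAXX-/- and 86.5% ± 1.12 in WT.

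Insertions in the bait window rose to 31.0%, 31.4% and 34.5% in PAXX-/- clone 1 and 32.4%, 35.4% and 33.9% in clone 2, against 24.8%, 26.1% and 28.7% in WT (difference 6.59 points, 3.61 to 9.58, exact permutation p = 0.0119, adjusted p = 0.0255). With the bait extended through the substituted bases the difference was 6.36 points, and without reads with over 5 unaligned bases 2.99 points (exact permutation p = 0.0238). Insertions of over 20 bases rose to 3.91% ± 1.102 in PAXX-/-, against 1.43% ± 0.216 in WT (difference 2.48 points, 0.923 to 4.44, exact permutation p = 0.0119, adjusted p = 0.0255). It was 1.38 points with the PAXX-/- libraries of the first run and 3.04 with those of the second. Microhomology was 49.2% ± 2.37 in PAXX-/- and 53.4% ± 1.81 in WT, and direct joins 17.7% ± 1.15 in PAXX-/- and 20.1% ± 1.11 in WT (exact permutation p = 0.0357 and adjusted p = 0.0595 for each). The unadjusted p of direct joins was above 0.05 without each library but PAXX-/- clone 1 library 3, and that of microhomology without PAXX-/- clone 2 library 3 or any WT library (up to 0.107 for both, exact permutation test). Among reads of 150 to 300 bases the insertion difference was 6.33 points and that of joins over 2 kb below the bait 5.18 points. Joins over 2 kb below differed by 5.57 points with the PAXX-/- libraries of the first run and 4.13 with those of the second.

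**Figure D4:**
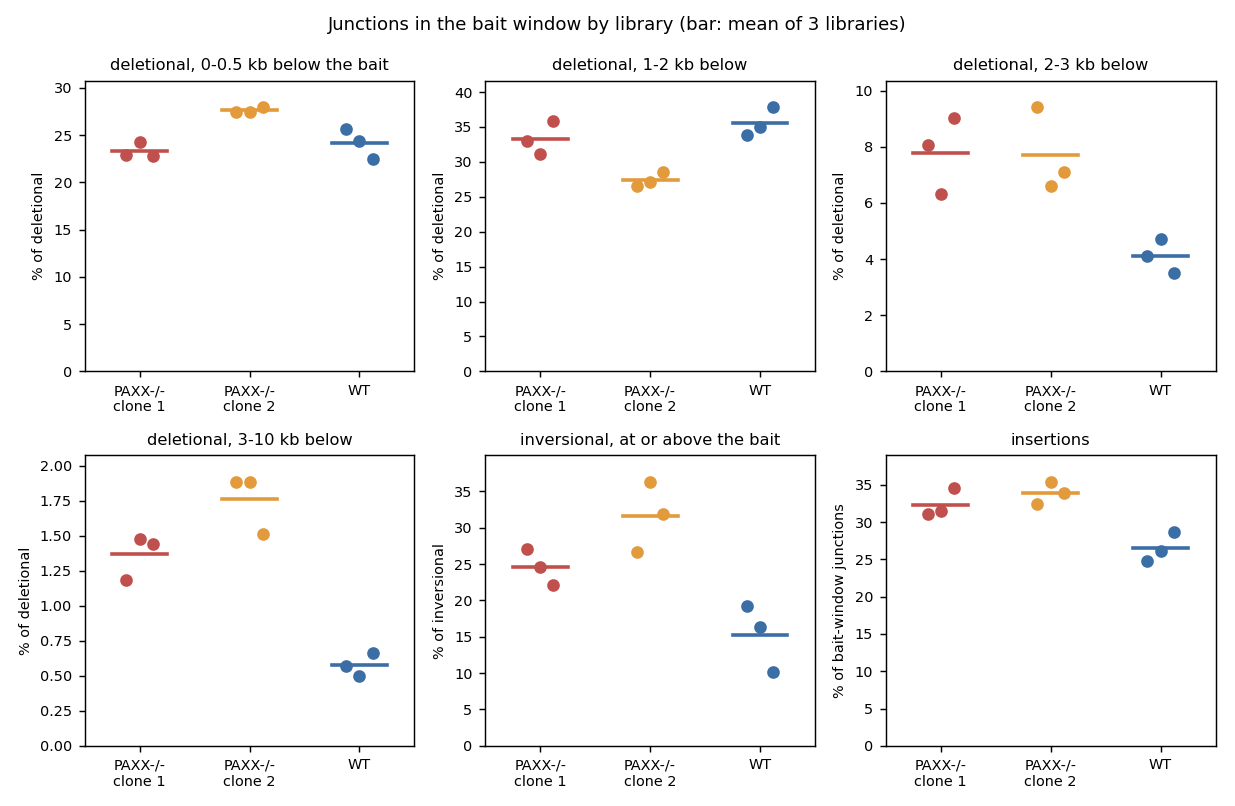
Bait-window junctions (%) by distance class, orientation and structure, with 1 point per library and a bar at the mean of 3 libraries, for PAXX-/- clone 1, PAXX-/- clone 2 and WT from left to right. All 6 PAXX-/- libraries lie above WT for deletional joins 2-3 kb and 3-10 kb below the bait, inversional joins at or above the bait, and insertions.

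Joins between the Sα and bait windows, where the switch regions that Sμ skips on the way to Sα lie, were a smaller share in all 6 PAXX-/- libraries. They numbered 124 of 25638 junctions beyond the bait window in PAXX-/- and 120 of 8514 in WT. By library their share was 0.208%, 0.470% and 0.476% in PAXX-/- clone 1 and 0.662%, 0.700% and 0.460% in clone 2, against 1.36%, 1.34% and 1.52% in WT. The groups did not overlap, and the share did not pass among the 6 partner shares (exact permutation p = 0.0119, adjusted p = 0.0714). Of 6 bins of 10 kb with 10 or more junctions, 4 had groups that did not overlap (66.7%) and 3 passed (50.0%), all lower in PAXX-/-. The bin at 114600001 fell to 0.161%, 0.176% and 0.191% in clone 1 and 0.301%, 0.458% and 0.281% in clone 2, against 0.629%, 0.669% and 0.877% in WT (difference -0.464 points, -0.687 to -0.270, exact permutation p = 0.0119, adjusted p = 0.0238). It held 64 junctions in PAXX-/- and 62 in WT. The bin at 114550001 (21 junctions in PAXX-/- and 24 in WT) and that at 114570001 (2 in PAXX-/- and 10 in WT) fell too (exact permutation p = 0.0119, adjusted p = 0.0238 for both). The bin at 114550001 differed by -0.202 points, and by -0.104 (exact permutation p = 0.0833) for bait ends clear of the substituted bases. That at 114570001 differed by -0.105 points, and by -0.0727 (exact permutation p = 0.0833) among reads of 150 to 300 bases. Without WT library 3 it was -0.0615 (exact permutation p = 0.0357). The part of the bin at 114650001 that lies below the bait window had 10 junctions over the 6 PAXX-/- libraries, at least 1 in each, and 0 in WT. A count of 0 among 8514 allows a WT share of up to 0.0352%, and this bin did not pass (exact permutation p = 0.0476, adjusted p = 0.0714). It was among the 4 bins whose groups did not overlap. The bin at 114650001 met the minimum of 10 junctions through PAXX-/- alone. That at 114570001, among the 3 that passed, met it through WT alone. For both bins the p-value and lack of overlap are therefore no support for a difference.

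The share of junctions that reached Sα, out of those beyond the bait window, was 65.1%, 77.5% and 79.2% in PAXX-/- clone 1 and 51.5%, 66.8% and 68.6% in clone 2, against 72.4%, 70.7% and 69.7% in WT. In each clone the library of the first run was the lowest. Other chromosomes mirrored this, with 31.6%, 19.8% and 17.9% in clone 1 and 44.1%, 29.4% and 28.2% in clone 2, against 22.9%, 25.1% and 26.0% in WT. Neither share passed (exact permutation test, adjusted p = 0.914 for both). Insertions on other chromosomes were 29.1% ± 5.67 in PAXX-/- and 30.6% ± 3.10 in WT, and were over 20 bases long in 18.9% ± 6.35 of PAXX-/- and 24.2% ± 3.48 of WT junctions. When reads with over 20 unaligned bases between bait and prey were left out, the insertion difference turned to 4.08 points above WT (exact permutation p = 0.0357), and it was also positive, at 4.13 points, without prey alignments under 30 bases (exact permutation p = 0.0952).

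By chromosome, 1 of 19 shares had groups that did not overlap (5.26%) and 0 passed (0.0%), with 2 at an unadjusted exact permutation p under 0.05. That 1 was chromosome 18, with 3.18% ± 0.419 of junctions on other chromosomes in PAXX-/- and 3.99% ± 0.280 in WT (exact permutation p = 0.0238, adjusted p = 0.339).

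The 5 densest 10 kb windows on other chromosomes were taken among those found in at least 5 of the 9 libraries. The 6 PAXX-/- libraries could meet this alone and the 3 WT libraries could not. The choice therefore favours windows with few junctions in WT, and low WT counts in them are no support for a difference. Of the 5 windows, 4 held few junctions. That on chromosome 8 at 125950001 had 23 in PAXX-/- clone 1 and 6 in clone 2, against 2 in WT, or mean shares of 0.159%, 0.0561% and 0.0248% of junctions beyond the bait window. That on chromosome 2 at 98500001 had 5 in clone 1 and 17 in clone 2, against 2 in WT, or 0.0348%, 0.156% and 0.0233%, so the clones differed in opposite order. The window on chromosome 1 at 20660001 held 34 of 25638 junctions in PAXX-/- and 12 of 8514 in WT, a mean share of 0.137% ± 0.0418 in PAXX-/- and 0.144% ± 0.102 in WT. That on chromosome 2 at 179460001 held 12 in PAXX-/- and 3 in WT, or 0.0451% ± 0.0267 in PAXX-/- and 0.0349% ± 0.0338 in WT, and neither passed (exact permutation test, adjusted p = 0.893 and 0.804). Genes of these windows are not named, since no mm9 annotation was used here.

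Of those 5 windows, 1 had groups that did not overlap (20.0%) and 0 passed (0.0%). It lay on chromosome 14 (32420001 to 32430000) and held 28, 42 and 40 junctions in PAXX-/- clone 1 and 28, 34 and 41 in clone 2, against 12, 9 and 12 in WT. As a share of junctions outside the bait window this was 0.646% to 1.05% in PAXX-/- and 0.334% to 0.420% in WT (difference 0.453 points, 0.241 to 0.660, exact permutation p = 0.0119, adjusted p = 0.0595). All 246 joins fell within 316 bp, 226 of them on the plus strand, and they used 74 bait ends. The commonest position, 32427222, took 27 joins in clone 1, 21 in clone 2 and 6 in WT. The prey that starts there reads as follows over 60 bases of the plus strand, shown because more joins ended there than at any other position of the window.
Prey at chr14:32427222-32427281: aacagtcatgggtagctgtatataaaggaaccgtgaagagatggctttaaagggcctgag

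**Figure D5:**
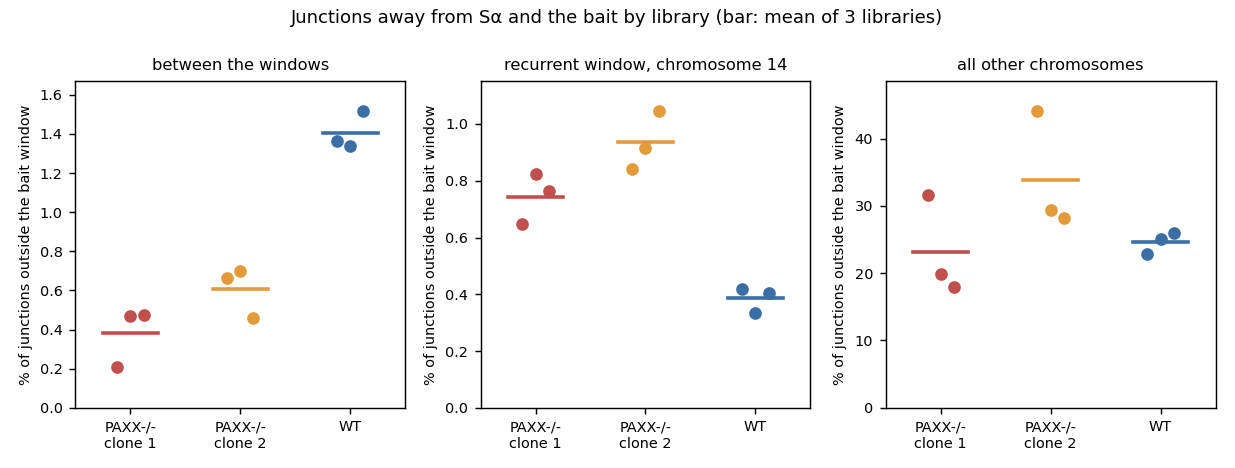
Share of junctions outside the bait window (%) between the windows, in the recurrent window on chromosome 14 and on all other chromosomes, with 1 point per library and a bar at the mean of 3 libraries, for PAXX-/- clone 1, PAXX-/- clone 2 and WT from left to right. PAXX-/- libraries lie below WT between the windows and above WT in the chromosome 14 window, and overlap WT for other chromosomes together.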

How the data were processed

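LAM-HTGTS junctions of 6 PAXX-/- and 3 WT libraries were analysed. Bowtie2 and the build mm9 are named by the authors, per the submitters' processing notes, and what else was done upstream is not given in the sources used here. In the deposited tables each junction has a line, with alignment positions of bait and prey on the read and genome. A table holds the 3 libraries of a clone, told apart by a library column that carries no replicate number, so libraries were numbered by name. No value column was left unused.

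The bait window reached 10 kb to each side of the bait, and the Sα window was 20 kb around the densest 1 kb bin at least 50 kb away. The core was the shortest interval with 90% of Sα junctions, clones weighted equally. Library values were compared by exact two-sided permutation over 84 assignments, with intervals from inverting the test at 95% and Benjamini-Hochberg adjustment within families. An adjusted p of 0.05 or less passed. Bases differing from WT needed 30 reads in both groups and 90% agreement in WT. Regions, bait ends and microhomologies were named by their mean share over the 9 libraries, or where groups did not overlap. Members and lists were chosen with earlier results of these data known. Single inserted bases, pile-ups and the clones' own bases were examined after seeing the data. Alternatives changed the windows, bins, minimums, insertions, short prey, repeated lines, libraries and runs used. Limits at 0 use 3 counts. The test was tried on simulated data. Python 3.11.15, numpy 2.4.6, pandas 2.3.3, scipy 1.17.1 and matplotlib 3.10.9 were used.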

Additional observations from a re-analysis of the deposited data

Results flagged for a closer look

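Single PAXX-/- libraries lay far from the other 5, by Dixon's test, in 7 of 154 measures, and chance flags about 1 in 20. PAXX-/- clone 1 library 3 had the lowest mean microhomology length at Sα, 2.28 bases against 2.34 to 2.37 in the other PAXX-/- libraries. The same library had the highest direct share in the bait window, 20.0% against at most 17.5%, and the highest share of junctions beyond the bait window in the bin at 114540001, 0.0762%, against 0.0196% to 0.0301%. PAXX-/- clone 2 library 2 was low for the microhomology sequences AGGC, at 0.955% against 1.35% to 1.56%, and GGC, at 0.876% against 1.38% to 1.49%. PAXX-/- clone 1 library 1 had 0 junctions in the bin at 114550001, against 0.0762% to 0.120%, and its single-base insertions were a thymine in 45.7%, against 34.1% to 38.0%.

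The clones lay to opposite sides of WT at bait base 65, the 1 of 154 measures flagged in this way. All 3 libraries of PAXX-/- clone 2 (4.073% to 5.32%) lay above WT (3.67% to 4.070%), the lowest of them only just. All 3 of clone 1 (2.91% to 3.51%) lay below WT, with the mean of clone 2 1.496 points above that of clone 1. The difference between the clones was not tested. In clone 2, G65A stood at this base in 50.9% of reads.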

How the results depend on the processing

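Differences below are PAXX-/- minus WT, in percentage points unless a unit is given, and a call is an unadjusted exact permutation p of 0.05 or less. Over 56 results and 32 settings, 1095 values had a test, of which 948 kept direction and side of that threshold, 89 lost the call, 10 gained it and 48 turned sign (4 of these called). Another 219 had no test: 214 moved by less than 1 SD between PAXX-/- libraries or, for counts, by no more than 1.5 times, and 5 moved further. The extended bait, the left-out pile-ups and the read-length range were chosen after seeing the data. The cause of the changes was not tested. No paired analysis was possible because the libraries carry no replicate number. The mean of clone means equals the reported mean, since both clones have 3 libraries.

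Without reads with over 20 unaligned bases, microhomology at Sα differed by 0.0971, the share outside the core by 0.445 (called), chromosome 12 below Sα by 0.0389, joins 0.5 to 1 kb below the bait by 0.187, and direct, microhomology and insertion shares on other chromosomes by -0.275, -3.81 (called) and 4.08 (called). Without those with over 5, microhomology at Sα differed by 0.874, its 2-base class by 0.183, chromosome 12 below Sα by 0.0398, joins 0.5 to 1 kb below by 0.436, and microhomology and insertions on other chromosomes by -3.01 and 2.99 (called). With insertions out of the denominator, microhomology at Sα differed by 1.26 (called) and its 2-base class by 0.282.

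For bait ends clear of substitutions, microhomology of 5 or more bases differed by 0.202, the bait side outside the core by 0.0151, the median position by 6.25 bp, the deletional share in the bait window by -0.610 and direct joins on other chromosomes by -0.738. With the core at 95%, the bait side differed by 0.0966. With 4 PAXX-/- libraries of 1 run, the Sα share differed by 2.12, other chromosomes by -0.855, chromosome 12 above the bait by 0.0297, joins 0.5 to 1 kb below by 0.568, and direct joins at Sα by -1.57 (no longer called). Without prey under 30 bases, chromosome 12 above the bait differed by 0.0132, joins at or above the bait by 0.505, and direct, microhomology and insertion shares on other chromosomes by -0.264, -3.86 and 4.13. In reads of 150 to 300 bases, direct joins at Sα differed by -1.49 (no longer called), microhomology length by -0.00325 bases and joins at or above the bait by 1.06. With repeated lines collapsed, the share outside the core differed by 0.443 (called). Bait ends whose groups did not overlap numbered 5 with a minimum of 0.5% and 1 with 2%.

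WT library 2 had the fewest junctions, 3610, and single libraries held 0 to 26 in the bins between the windows. Leaving out a library also raises the least p possible, to 0.0357 by the exact permutation test without a WT library. A lost call alone therefore does not show a smaller difference. Leaving out 1 library gave -5.02 to 0.524 for the Sα share, 0.887 to 2.26 for the bait window (called without PAXX-/- clone 2 library 1), -0.0140 to 0.0196 bases for microhomology length, 0.289 to 0.629 outside the core (called without PAXX-/- clone 1 library 2 or WT library 3) and 1.503 to 1.94 for insertions over 20 bases at Sα (lost without PAXX-/- clone 1 library 2 or any WT library). Sign changes without a call were also seen for joins 0.5 to 1 kb below (-0.884 to 0.217), joins at or above the bait (-0.932 to 0.0893), chromosome 12 below Sα (-0.311 to 0.00473) and above the bait (-0.0589 to 0.0713), microhomology on other chromosomes (-0.229 to 2.45), and 2-base (-0.722 to 0.133) and 3 to 4-base classes (-0.0463 to 0.619). Inversional joins at or above the bait were 10.3 without WT library 3, where the call was lost. Of the 9 runs without 1 library, calls were lost in 8 for direct joins and 4 for microhomology in the bait window, 7 for 1-base insertions, 6 for the far side outside the core, 6 each for bait bases 68 and 79, 3 for base 81 and 6 for the bin at 114650001.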
